A study of Mus musculus with 10 samples.

Results

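The genes described here are 10 goblet cell genes that encode mucus components, their secretory helpers and 2 of the transcription factors of the lineage. They are Muc2, Fcgbp, Zg16, Tff3, Clca1, Agr2, Spink4, Bcas1, Atoh1 and Spdef, taken by symbol from a count table of 13932 listed genes, and all 10 passed the filter on low counts that left 12477 genes to test. RNA came from the ileum of 10 mice, from live cells sorted as CD45-negative and EpCAM-positive, a gate for epithelial cells that leaves out leukocytes. Both genotypes were H2-Ab1 fl/fl, that is, the MHC class II gene H2-Ab1 was flanked by loxP sites. The 5 mice called dIEC were Villin:Cre+ by their sample labels, so that Cre recombinase was driven by the villin promoter of the intestinal epithelium, and the 5 mice called WT were Villin:Cre-. The series text gives Cre- for both genotypes. Each genotype had 3 males and 2 females, each library came from 1 mouse, and ages are not stated in the labels. Cre was present in all dIEC mice and in none of the WT mice, and what Cre does by itself cannot be told apart from what the deletion does.

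Goblet cells are the mucus-producing cells of the intestinal epithelium and arise from dividing crypt progenitors. Atoh1, a basic helix-loop-helix factor restrained by Notch signalling, is required for all secretory lineages of the mouse intestine, and Spdef, an Ets-family factor that acts after it, promotes the maturation of goblet and Paneth cells. Mature goblet cells package the gel-forming mucin Muc2 in granules together with Fcgbp, Zg16, Tff3 and Clca1, and the released material forms the mucus that keeps bacteria away from the epithelial surface. Agr2 is a protein disulfide isomerase of the endoplasmic reticulum that mouse Muc2 production needs. Spink4 encodes a secreted protein of the Kazal protease inhibitor family, and Bcas1 is best known from oligodendrocytes.

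One symbol needs care. The row listed as Clca1 carries the identifier ENSMUSG00000056025, which GENCODE M21 names Clca3a1. The goblet cell gene now called Clca1, a metalloprotease-like protein of mucus also known as gob-5, has the identifier ENSMUSG00000028255 and is listed as Clca3. The 2 rows differed greatly in level, with means of 7.96 CPM (counts scaled by library size) for the row listed as Clca1 and 2270 CPM for the row listed as Clca3. Values of both rows are given below, and only the first counts among the 10 members. Reads of Clca family genes could be split between similar copies. The Clca1 row (chromosome 3, 144729677 to 144760977 on GRCm38) overlaps the antisense gene Gm34866, Bcas1 (chromosome 2, 170346991 to 170427845) overlaps the antisense genes Bcas1os1 and Bcas1os2, and Zg16 (chromosome 7, 127050156 to 127087328) overlaps the lincRNA Gm44939 and the snRNA Gm22747. Whether counting used strand is not given in the sources used here, and these rows are uncertain to that extent. The other members overlap no annotated gene. Muc2 (ENSMUSG00000025515) lies on the plus strand of chromosome 7 from 141690340 to 141754693, and Fcgbp (ENSMUSG00000047730) on the same strand from 28071236 to 28120862. Atoh1 (ENSMUSG00000073043) lies on chromosome 6 from 64729125 to 64731245, Spdef (ENSMUSG00000024215) on chromosome 17 from 27714352 to 27728955, and Agr2 (ENSMUSG00000020581) on chromosome 12 from 35992907 to 36004087.

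Promoter sequences are shown for 3 products, because Muc2 and Fcgbp varied together over the libraries while Agr2 followed another course. Each is the 250 bases before the RefSeq start of the gene on GRCm38.p6, written 5′ to 3′ along the gene. Capitals mark the E-box CANNTG, the sequence class bound by basic helix-loop-helix factors such as Atoh1, and GGAT or its reverse complement ATCC, the Ets core that Spdef prefers. The Muc2 window is chr7:141690090-141690339, the Fcgbp window chr7:28070986-28071235 and the Agr2 window chr12:35992675-35992924, all on the plus strand.
Muc2: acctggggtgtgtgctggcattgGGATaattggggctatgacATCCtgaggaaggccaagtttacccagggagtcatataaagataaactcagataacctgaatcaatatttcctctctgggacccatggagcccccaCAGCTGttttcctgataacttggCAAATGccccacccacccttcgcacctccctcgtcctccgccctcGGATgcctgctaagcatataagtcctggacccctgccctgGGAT
Fcgbp: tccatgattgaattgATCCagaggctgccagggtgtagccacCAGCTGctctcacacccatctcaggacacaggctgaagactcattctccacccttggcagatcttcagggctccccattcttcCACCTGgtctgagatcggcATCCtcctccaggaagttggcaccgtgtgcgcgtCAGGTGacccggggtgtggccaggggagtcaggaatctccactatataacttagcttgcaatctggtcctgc
Agr2: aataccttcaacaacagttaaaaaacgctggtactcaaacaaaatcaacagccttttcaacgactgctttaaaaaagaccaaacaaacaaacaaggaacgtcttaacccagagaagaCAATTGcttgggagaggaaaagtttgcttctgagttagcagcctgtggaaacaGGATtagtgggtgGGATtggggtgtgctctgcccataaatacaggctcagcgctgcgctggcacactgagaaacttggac
The Muc2 window held 2 E-boxes, at 112 and 89 bases before the start, and 4 GGAT cores. The Fcgbp window held 3 E-boxes, at 208, 125 and 72 bases before the start, and 2 GGAT cores. The Agr2 window held 1 E-box, at 133 bases, and 2 GGAT cores. No E-box overlapped a GGAT core in these windows. The E-box letters CAGCTG occurred in the Muc2 and Fcgbp windows and not in the Agr2 window. The windows of Atoh1, Spdef and Clca3a1 held no E-box, and that of Spdef held 5 GGAT cores. Searched on both strands, CANNTG was present in 66.2%, CAGCTG in 13% and GGAT in 74.1% of 32851 RefSeq promoter windows of the same length, so CANNTG and GGAT are common letters. These matches describe the windows and say nothing of binding. RefSeq windows were matched for 6 of the 11 rows.

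The libraries held 9174101 to 13484363 counts each. H2-Ab1 itself had 0.766 to 3.11 CPM in dIEC libraries and 62.8 to 368 CPM in WT libraries, which matches the sample labels (log2 fold change -6.39, edgeR quasi-likelihood adjusted p = 0.000904). Of 15 leukocyte genes 3 had a row. Ptprc, which encodes CD45, was at 0.440 ± 0.304 CPM in dIEC and 0.537 ± 0.170 CPM in WT (SD, n = 5 each). Csf1r was at 0.566 ± 0.402 CPM in dIEC and 0.324 ± 0.19 CPM in WT. Itgam was higher, at 12.7 ± 2.95 CPM in dIEC and 12.7 ± 4.14 CPM in WT, and it alone of the 3 passed the filter. The epithelial gene Vil1 averaged 4750 ± 1590 CPM in dIEC and 4360 ± 939 CPM in WT (SD, n = 5 each). The libraries differed widely in proliferation transcripts, whose summed level over 22 genes ran from 272.4 CPM in dIEC 7 to 1652 CPM in dIEC 9. Library numbers are those of the labels, and dIEC 7, dIEC 9, WT 8 and WT 10 were the females.

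The members ranged widely in level, from a mean of 10700 CPM for Fcgbp to 7.96 CPM for the row listed as Clca1. The 10 members together held 0.873% to 2.65% of all counts in dIEC libraries and 0.45% to 4.22% in WT libraries. Fcgbp, a large protein with repeated von Willebrand D domains that is stored with the mucin, was the highest of all listed genes in dIEC 5 and in WT 4. Its rank was lower in the females dIEC 9 (11), WT 8 (28) and WT 10 (30). Per kilobase of annotated exon, Tff3 and Zg16 were highest with a mean level of 2760 CPM per kb each, followed by Fcgbp at 1020, Spink4 at 472, Agr2 at 340 and Muc2 at 191 CPM per kb. By the same measure Clca3 had 601 CPM per kb, and the row listed as Clca1 had 2.04 CPM per kb. The Muc2 value rests on an annotated exon length of 7127 bases in a gene whose repeats are hard to assemble and to map, so its place in this order is uncertain. The factors were rarer, with Atoh1 at 13.6 and Spdef at 9.37 CPM per kb, and Bcas1 was at 10.4 CPM per kb. In bulk RNA, fewer goblet cells and less goblet RNA per cell cannot be told apart.

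Muc2, the gel-forming mucin, had 1750, 875, 2080, 1250 and 402 CPM in dIEC 1, 3, 5, 7 and 9, against 905, 4110, 1580, 353 and 314 CPM in WT 2, 4, 6, 8 and 10. WT 4 stood far above every other library, the 3 lowest libraries were the females dIEC 9, WT 8 and WT 10, and the WT range enclosed the dIEC range. Fcgbp had 11000, 7690, 17400, 10400 and 3290 CPM in the dIEC libraries, against 7790, 31200, 13200, 2520 and 2880 CPM in the WT libraries, in the same order. Its order of libraries was close to that of Muc2, with WT 4 highest and the same 3 females lowest.

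Zg16, a lectin-like protein that binds Gram-positive bacteria, had 3420, 2480, 5570, 3080 and 1740 CPM in dIEC, against 2790, 8740, 4320, 1440 and 1080 CPM in WT. Tff3, the trefoil peptide of goblet cells that aids epithelial repair, had 1210, 1020, 1940, 1170 and 860 CPM in dIEC, against 1210, 3160, 2000, 584 and 441 CPM in WT. Both were again highest in WT 4 and lowest in WT 10, but their spread was narrower, 8.06-fold for Zg16 and 7.18-fold for Tff3 between the highest and lowest library, beside 13.1-fold for Muc2 and 12.4-fold for Fcgbp. The row listed as Clca3, which holds the mucus metalloprotease-like gene, had 3130, 1790, 3170, 1720 and 1310 CPM in dIEC, against 1790, 4530, 2950, 1230 and 1090 CPM in WT. In the Clca1 row there were 4.81, 12.1, 12.9, 9.88 and 7.54 CPM in dIEC, against 9.71, 8.18, 8.13, 4.25 and 2.15 CPM in WT. It was the 1 member of the 10 that peaked in a dIEC library, dIEC 5.

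Agr2, the disulfide isomerase, had 462, 387, 461, 222 and 527 CPM in dIEC, against 475, 451, 733, 511 and 158 CPM in WT. Spink4 had 184, 176, 220, 98.7 and 316 CPM in dIEC, against 281, 216, 374, 300 and 84.0 CPM in WT. These 2 genes ranked the libraries differently from Muc2 and Fcgbp: the females dIEC 9 and WT 8, near the bottom for Muc2, were among the 3 highest for both, and WT 4 was not at the top. The lowest libraries for both were dIEC 7 and WT 10.

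Among the factors, Atoh1 had 32.5, 21.8, 45.0, 21.5 and 21.3 CPM in dIEC, against 28.8, 51.5, 38.0, 18.1 and 10.8 CPM in WT. Spdef had 26.4, 18.2, 24.4, 13.1 and 19 CPM in dIEC, against 23.5, 28.4, 32.0, 21.4 and 9.68 CPM in WT. Atoh1 was highest in WT 4, as Muc2 and Fcgbp were, while Spdef was highest in WT 6, as Agr2 and Spink4 were. Bcas1 had 41.9, 35.6, 47.4, 31.4 and 26.5 CPM in dIEC, against 39.5, 77.7, 48.2, 26.4 and 19.5 CPM in WT, with its highest and lowest libraries, WT 4 and WT 10, shared with Muc2. Of the 10 members 9 were lowest in WT 10, 6 were highest in WT 4 and 3 in WT 6. Spdef varied least, 3.3-fold between its extremes.

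**Figure D1:**
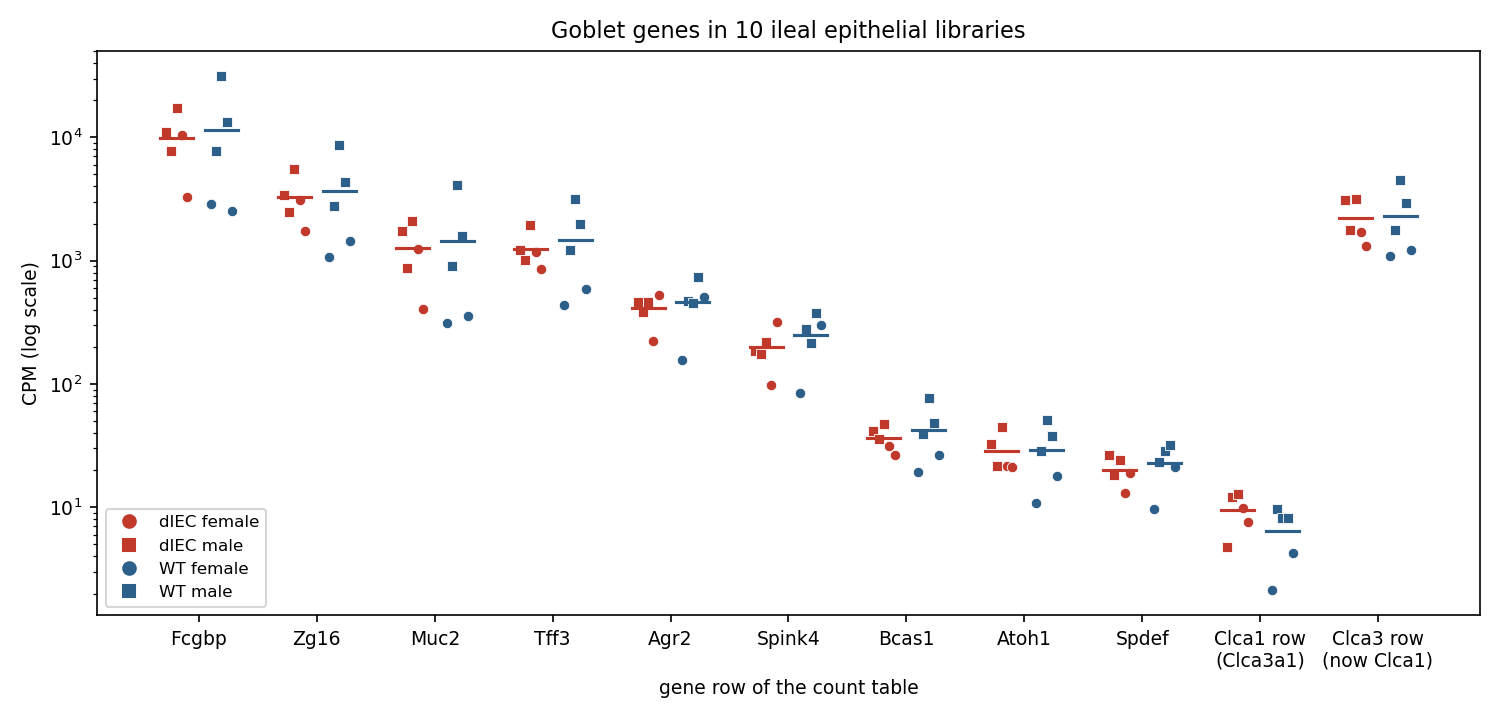
CPM of each goblet gene row in every library on a log axis, dIEC left of WT, with females as circles, males as squares and group means as bars. The genotypes overlap for all 11 rows, with Muc2 at 402 to 2080 CPM in dIEC and 314 to 4110 CPM in WT, and the females lie below all males for Atoh1, Bcas1 and the Clca3 row.

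The first comparison asked whether goblet genes differed between epithelium meant to lack MHC class II and epithelium that kept it. No member passed the threshold of 0.05, as 0 of 10 were called by edgeR's quasi-likelihood test with sex in the model, where 2 of all 12477 genes were (0.016%). DESeq2 also called 0 of the 10 (0.0321% of all genes), and 0 were under an unadjusted p of 0.05, a mark that 2.85% of all genes reached. Muc2 averaged 1270 ± 671 CPM in dIEC and 1450 ± 1570 CPM in WT (SD, n = 5 each), with a log2 fold change of 0.22 (SE 0.54) and a 95% interval of -0.98 to 1.42. Fcgbp averaged 9960 ± 5150 CPM in dIEC and 11500 ± 11800 CPM in WT, with a log2 fold change of 0.21 (SE 0.54). For both genes the fitted value with sex in the model is above 0 while the plain mean is lower in dIEC. Without sex in the model it was -0.19 for Muc2 and -0.21 for Fcgbp.

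The other members gave log2 fold changes from -0.31 for Spink4 (SE 0.39) to 0.67 for the row listed as Clca1 (SE 0.35), and every member had an edgeR adjusted p of 0.9999. Tff3 stood at 0.02 (SE 0.38) and Zg16 at 0.09 (SE 0.42). Agr2 stood at -0.14 (SE 0.34) and Bcas1 at -0.11 (SE 0.22). The factors were at 0.07 for Atoh1 (SE 0.26) and -0.15 for Spdef (SE 0.23). Listed as Clca3, the gob-5 gene was at 0.03 (SE 0.29). Values were above 0 for 6 members and below 0 for 4, with a median of 0.04, and the median over all tested genes was 0.01. The CPM ranges of the genotypes overlapped for 10 of 10 members, where 0.321% of all genes had ranges that did not overlap.

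These data bound the genotype difference more closely for the factors than for Muc2 and Fcgbp. The 95% interval of Atoh1 was -0.52 to 0.65 on the log2 scale, that of Spdef -0.65 to 0.35 and that of Bcas1 -0.60 to 0.38, all short of a 2-fold change in either direction. The intervals of Tff3 (-0.83 to 0.87) and Agr2 (-0.89 to 0.61) were also within 2-fold. Those of Muc2, Fcgbp, Zg16 and the Clca1 row included a 2-fold higher level in dIEC, and that of Spink4 included a 2-fold lower one. Changes of that size were not excluded for them. All these intervals are unadjusted and are for a genotype value shared by both sexes, so they do not bound the difference within a sex. For Tff3 that value was 0.986 in females only and -0.603 in males only.

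The sign of the genotype values depended on sex and on single libraries. Among females alone all 10 members had values above 0, with 1.31 for Muc2 and a median of 0.75. Among males alone 9 of 10 had values below 0, with -0.47 for Muc2, -0.60 for Tff3 and a median of -0.43. None was called in either sex. The shares of all genes called, or with values above 0, were not counted in these smaller fits, so these counts have no background. Muc2 changed to -0.25 without dIEC 7 and to -0.02 without WT 10, and reached 0.77 without WT 4.

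**Figure D2:**
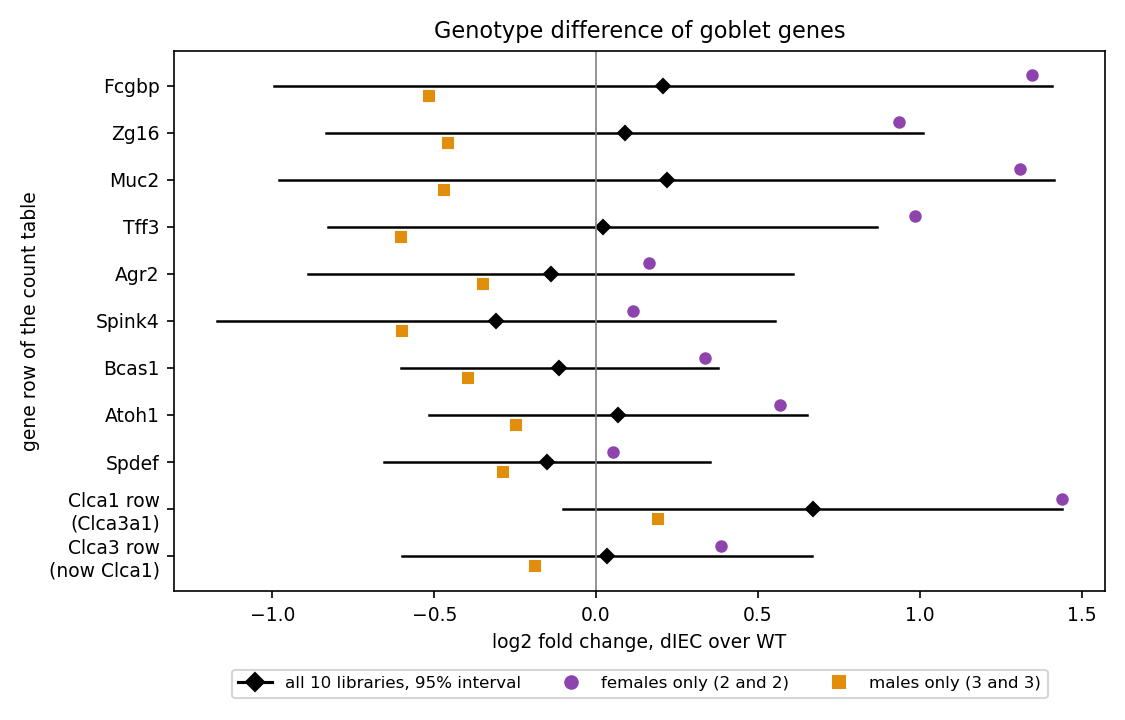
Log2 fold change of dIEC over WT for each row (diamonds, with 95% intervals as lines), beside the values from females only (circles) and males only (squares). Every interval includes 0, and the values from females lie to the right of those from males for each row, for example 1.31 and -0.47 for Muc2.

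Female against male mice, within the same model, showed lower fitted values in females for 10 of 10 members, with a median log2 fold change of -0.95 where all tested genes had a median of 0.04. No member passed the threshold, as 0 of 10 were called, against 0.0401% of all genes called in either direction by edgeR. DESeq2 also called 0 of the 10 (0.104% of all genes). At an unadjusted p under 0.05 there were 7 of 10 members, a mark that 4.44% of all genes reached. The members are measured in the same libraries and many varied together, so these 7 are not independent observations. Bcas1 averaged 26.0 ± 4.87 CPM in females (n = 4) and 48.4 ± 15.1 CPM in males (n = 6), with a log2 fold change of -0.88 (SE 0.23, edgeR adjusted p = 0.9996). Atoh1 averaged 17.9 ± 4.98 CPM in females (n = 4) and 36.3 ± 10.9 CPM in males (n = 6), with a log2 fold change of -1.02 (SE 0.28, edgeR adjusted p = 0.9996). For these 2 members every female lay below every male, a pattern that 0.433% of all genes showed. The row listed as Clca3 showed it too, with 1090 to 1720 CPM in females and 1790 to 4530 CPM in males.

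Among the 10 members, the mucus products had the largest log2 differences between the sexes, -1.77 for Muc2 (SE 0.58), -1.69 for Fcgbp (SE 0.58), -1.33 for Zg16 (SE 0.44) and -1.21 for Tff3 (SE 0.41). Spdef was at -0.68 (SE 0.24). Agr2 (-0.47, SE 0.35) and Spink4 (-0.24, SE 0.40) had values nearest to 0. Within WT alone all 10 members had values below 0 and within dIEC alone 9 of 10, the exception being Spink4 at 0.09. Muc2 was at -2.72 in WT alone and at -0.97 in dIEC alone. The share of all genes below 0 was not counted within a genotype. Of the 13 genes of the Paneth list, 12 had values below 0 in females, with a median of -1.07, and Guca2b was at 0.18. Their summed level was 1739 to 2847 CPM in females and 3128 to 5136 CPM in males. This sum is weighted to Reg3g (mean 1510 CPM) and Guca2b (848 CPM), beside 350 CPM for Lyz1, so it is not an even measure of the list. Other lists also had values below 0 in females: 15 of 15 enteroendocrine genes (median -0.31), 21 of 22 proliferation genes (median -0.26) and 10 of 12 crypt stem cell genes (median -0.40). Values were above 0 for 8 of 8 tuft cell genes (median 0.58) and 17 of 20 mature enterocyte genes (median 0.15). The part of Paneth cells or of other cell types in the difference between the sexes was not tested.

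With the proliferation score as a further term in the model, Bcas1 passed for female against male mice (log2 fold change -0.94, edgeR adjusted p = 0.0482), and so did the row listed as Clca3 (-1.22, edgeR adjusted p = 0.0419). In that model 1 of the 10 members was called, against 2.96% of all genes called in either direction and 2.12% called lower in females.

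The genotype difference was then compared between the sexes. All 10 members had interaction values above 0, that is, a higher ratio of dIEC to WT in females than in males, and their median log2 value was 1.03 where that of all genes was 0.04. None was called (0 of 10, against 0.00801% of all genes), and Tff3 alone was under an unadjusted p of 0.05 (1.59, SE 0.61; edgeR adjusted p = 1), a mark that 2.1% of all genes reached. Muc2 averaged 825 CPM in dIEC females and 334 CPM in WT females (n = 2 each). In males it averaged 1570 CPM in dIEC and 2200 CPM in WT (n = 3 each). Its interaction was 1.79 (SE 0.96), with an interval of -0.37 to 3.96. The members are measured in the same 10 libraries, so their common sign is not 10 independent observations.

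The next question was whether the factors varied with the products over the 10 libraries. Atoh1 followed the mucus products closely. Its log2 CPM had a Pearson r of 0.958 with Tff3, 0.954 with Bcas1, 0.952 with Zg16, 0.904 with Muc2 and 0.886 with Fcgbp (permutation adjusted p from 0.00016 to 0.00187 over 16 relations, n = 10). Spearman's rho for Atoh1 was 0.976 with Tff3 (adjusted p = 0.000107), 0.952 with Muc2 (adjusted p = 0.000352) and 0.988 with Bcas1, by permutation. Without WT 10 and WT 4, the libraries farthest from the median of Atoh1, r was 0.910 with Tff3, 0.830 with Muc2, 0.822 with Fcgbp, 0.912 with Zg16 and 0.932 with Bcas1. Within the 6 males r of Atoh1 was 0.929 with Tff3 and 0.913 with Muc2 (exact permutation p = 0.0153 for each). The 4 females were too few for a value of their own. In residuals after sex and genotype, r of Atoh1 was 0.909 with Tff3, 0.774 with Muc2 and 0.729 with Fcgbp.

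The relations of Atoh1 with Agr2 (r = 0.649, permutation adjusted p = 0.0636), the Clca1 row (0.634, adjusted p = 0.0645) and Spink4 (0.498, adjusted p = 0.154) did not pass. With the row listed as Clca3, Atoh1 had an r of 0.934.

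Spdef had its highest r with Agr2 (0.917, permutation adjusted p = 0.00187) and Spink4 (0.811, adjusted p = 0.0128), and it passed with Bcas1 (0.790), Tff3 (0.730, adjusted p = 0.0303) and Zg16 (0.687, adjusted p = 0.0456). With Muc2 (0.624, adjusted p = 0.0653), Fcgbp (0.574, adjusted p = 0.0923) and the Clca1 row (0.441) it did not pass by Pearson's r. By rank, rho passed for Spdef with Muc2 (0.745, permutation adjusted p = 0.0320) and Fcgbp (0.721, adjusted p = 0.0386) and not with Agr2 or Spink4 (0.588 each, adjusted p = 0.108). Without dIEC 7 and WT 10, the lowest libraries for all 3 genes, r of Spdef was 0.556 with Agr2 and 0.211 with Spink4. In the same libraries r of Spdef was 0.718 with Muc2, 0.725 with Tff3, 0.685 with Fcgbp, 0.71 with Zg16, 0.733 with Bcas1 and -0.126 with the Clca1 row. Within the 6 males, which include neither library, it was 0.792 with Agr2 (exact permutation p = 0.0972, unadjusted) and 0.633 with Spink4 (exact permutation p = 0.178, unadjusted). In residuals after sex and genotype, r of Spdef was 0.925 with Agr2, 0.858 with Spink4 and 0.226 with Muc2. In residuals after the proliferation score, a mean log2 CPM over the proliferation genes, it was 0.936 with Agr2, 0.743 with Spink4, 0.871 with Muc2, 0.826 with Fcgbp, 0.875 with Zg16 and 0.913 with Bcas1. Spink4 was above Muc2 in the first of these residuals and below it in the second. In all, 10 of the 16 relations passed by Pearson's r and 8 of them by rho as well. How many of all genes would pass with each factor was not counted. Among 12476 other tested genes, 0.168% had a higher r with Spdef than Agr2 had, and 3.25% a higher r than Zg16. With Atoh1, 0.0561% had a higher r than Tff3 and 0.545% a higher r than Fcgbp. The difference between the r values of Atoh1 and Spdef was not tested.

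**Figure D3:**
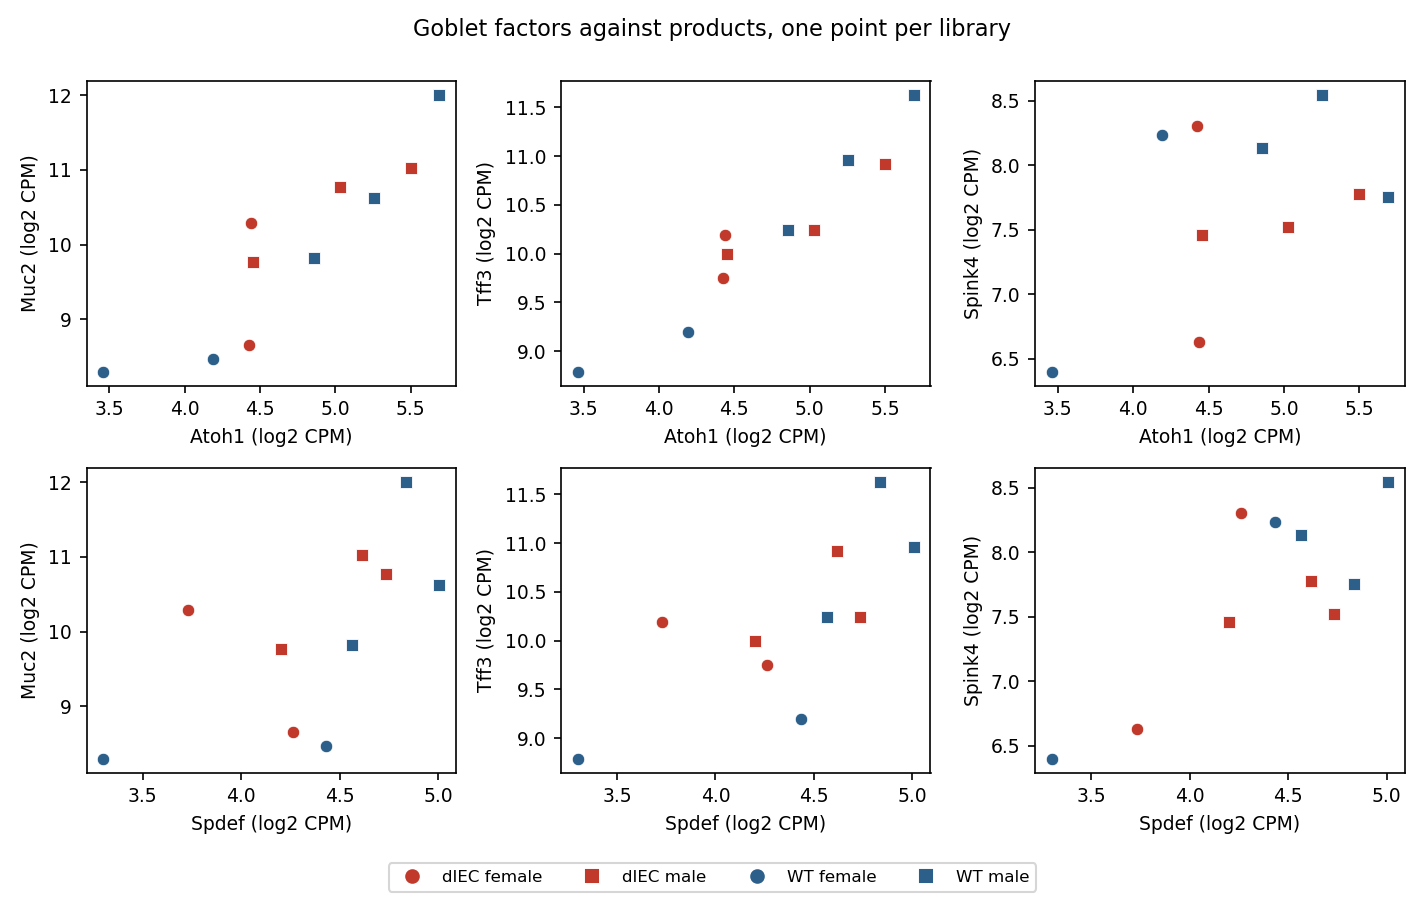
Log2 CPM of Atoh1 (top) and Spdef (bottom) on the x axes against Muc2, Tff3 and Spink4 on the y axes, 1 point per library, dIEC in red and WT in blue, females as circles and males as squares. Tff3 and Atoh1 lie along a narrow band (r = 0.958), while Spink4 against Atoh1 is scattered (r = 0.498) and Spink4 against Spdef has r = 0.811 over all libraries, 0.211 without the 2 lowest for Spdef and 0.633 within the males.

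Over all pairs of the 11 rows the genes fell into 2 blocks, described here without a test because they were drawn after the values were seen. Muc2, Fcgbp, Zg16, Tff3, Bcas1, Atoh1 and the row listed as Clca3 had r from 0.886 to 0.992 among themselves (21 pairs). Agr2, Spink4 and Spdef had r from 0.811 to 0.961 among themselves (3 pairs). The place of Spdef was not firm. Its r with Atoh1 (0.855) was above that with Spink4 (0.811). Among 12476 other tested genes Spdef had rank 814 by r with Spink4 (6.52% were higher), where Agr2 had rank 7. By rank, rho of Spdef was 0.588 with Agr2 and with Spink4, against 0.867 with Bcas1, 0.855 with Tff3 and 0.745 with Muc2. Without dIEC 7 and WT 10 its r was also lower with Agr2 and Spink4 than with Muc2, Tff3 and Bcas1. Between the blocks r ran from 0.08 for Fcgbp with Spink4 to 0.855 for Atoh1 with Spdef, with a median of 0.498. In residuals after the proliferation score the blocks lay closer together, with r between them from 0.404 to 0.913 and a median of 0.759, against 0.932 to 0.992 within the first block and 0.743 to 0.936 within the second. Muc2 with Agr2 was then at 0.727, against 0.311 without that step, and Muc2 with Spdef at 0.871, against 0.624. The row listed as Clca1 had r of at most 0.668 with any other row, and none of its 10 pairs passed. All r values share the same 10 libraries and the same library totals.

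**Figure D4:**
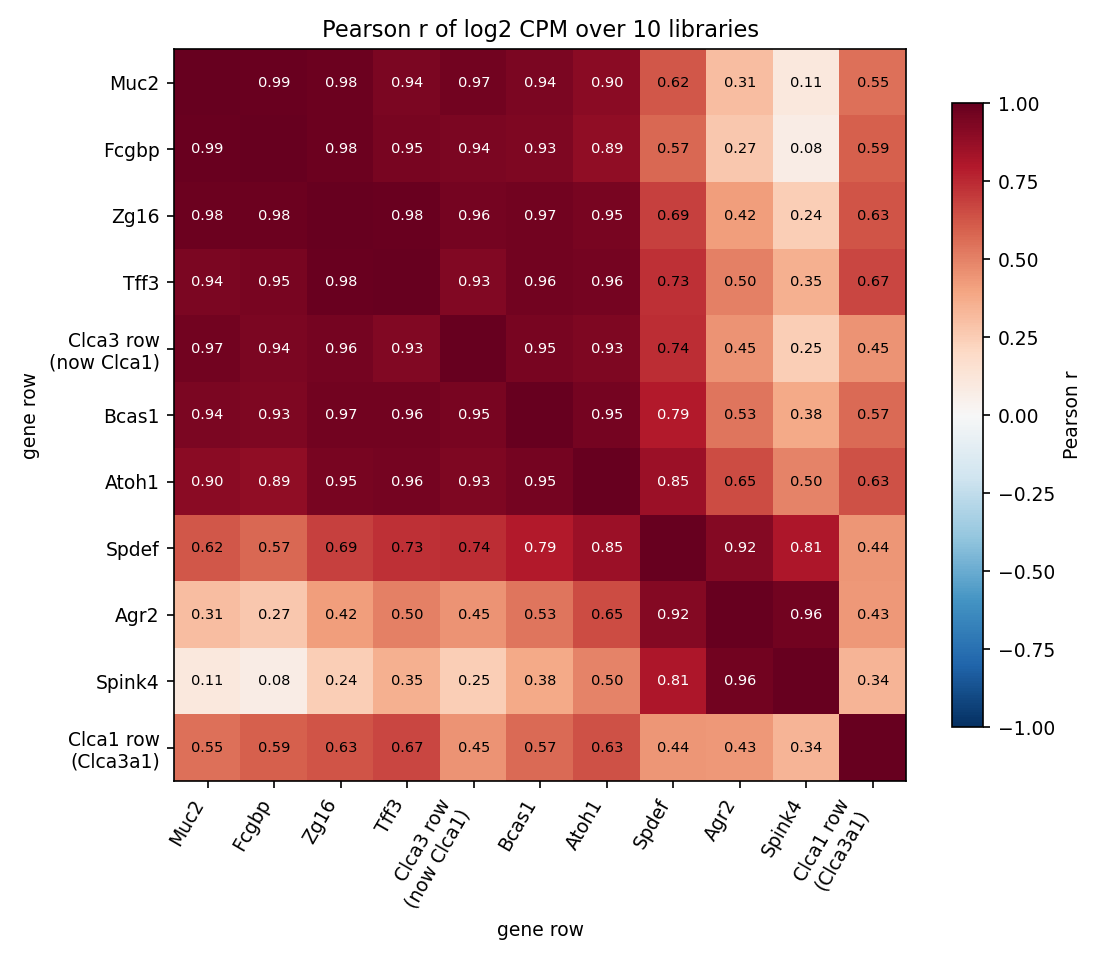
Pearson r of log2 CPM over 10 libraries for each pair of rows, from blue (-1) to red (1). The upper left block from Muc2 to Atoh1 holds r from 0.886 up, Agr2 with Spink4 reaches 0.961, and Spink4 with Muc2 is at 0.109.

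Ratios of rows within a library gave overlapping ranges for the blocks. Over the 10 libraries a ratio varied 1.42- to 4.38-fold for pairs within the first block and 2.18- to 17.2-fold for pairs between the blocks. Muc2 to Tff3 varied 3.09-fold, and Atoh1 to Spdef, from different blocks, 2.18-fold. Per 100 counts of Fcgbp there were 11.4 to 15.8 counts of Muc2 in dIEC and 10.9 to 14 in WT, averaging 12.7 ± 1.77 in dIEC and 12.3 ± 1.25 in WT (SD, n = 5 each). This ratio varied 1.45-fold over all 10 libraries while Muc2 alone varied 13.1-fold and Fcgbp 12.4-fold. Tff3 to Zg16 varied 1.42-fold, and Agr2 to Spink4 varied 1.51-fold. Spink4 relative to Fcgbp, by contrast, varied 17.2-fold, with 0.949 to 9.6 counts per 100 of Fcgbp in dIEC and 0.693 to 11.9 in WT. The high values came from the females dIEC 9 (9.6) and WT 8 (11.9), and the low values from dIEC 7 (0.949) and WT 4 (0.693). Agr2 per 100 Fcgbp followed it, at 2.13 to 16 in dIEC and 1.45 to 20.3 in WT.

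**Figure D5:**
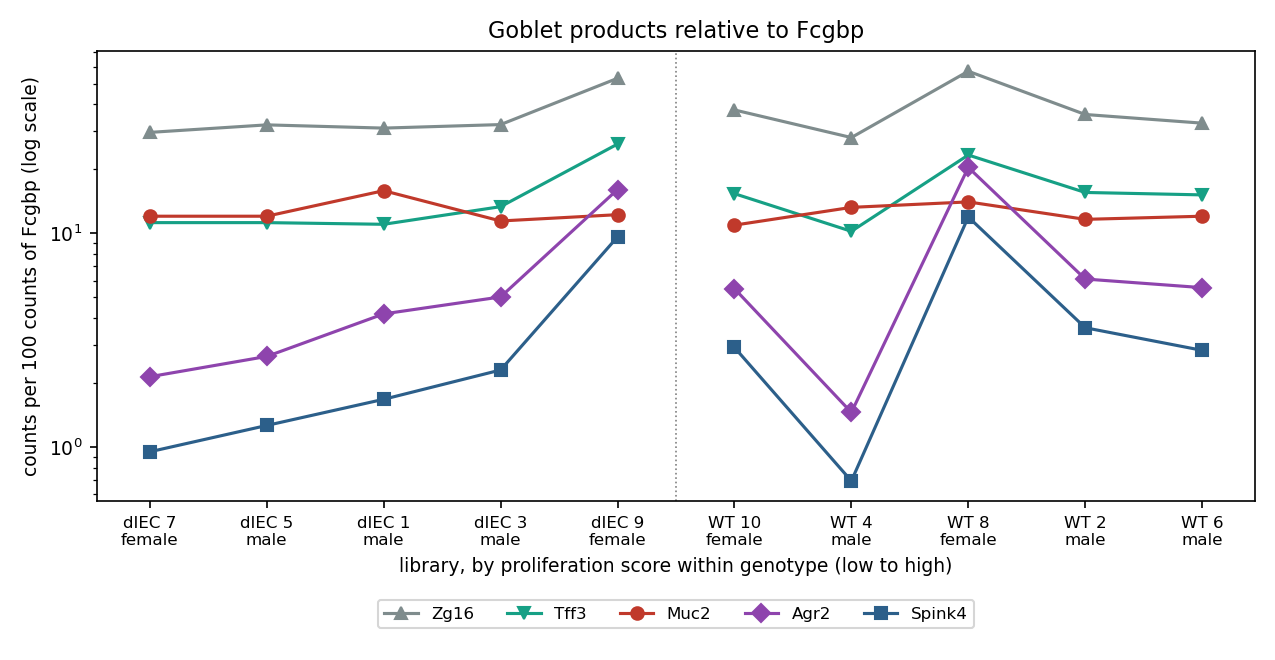
Counts of 5 products per 100 counts of Fcgbp in each library on a log axis, dIEC left of WT, ordered within each genotype by the mean log2 CPM of the proliferation genes. Muc2 stays between 10.9 and 15.8, while Spink4 spans 0.693 (WT 4) to 11.9 (WT 8).

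The members were set beside scores of 4 other cell states, each a mean log2 CPM over a list, and none of 48 relations passed after adjustment. The 2 highest for the proliferation score were with Spink4 (r = 0.844) and Agr2 (r = 0.806), each with a permutation adjusted p of 0.0676, whereas r was -0.143 with Muc2 and -0.161 with Fcgbp. Within the 6 males r of the proliferation score was -0.838 with Muc2 and -0.830 with Fcgbp (exact permutation p = 0.0306 and 0.0444, unadjusted). The log2 ratio of Spink4 to Fcgbp had an r of 0.592 with the proliferation score over all libraries (permutation adjusted p = 0.308) and of 0.981 within the 6 males (exact permutation p = 0.00278, unadjusted). This ratio joins the pair with the lowest r of all 55 pairs of rows (0.0774). It was not chosen apart from these values, so its p-values are description only. The mature enterocyte score ran opposite to Spink4 (r = -0.749, permutation adjusted p = 0.0974) and Agr2 (r = -0.669, adjusted p = 0.185). The Paneth score was near Agr2 (r = 0.856), Spdef (0.846) and Spink4 (0.804), with permutation adjusted p of 0.0676 to 0.0755, and r within males was 0.325, 0.222 and 0.492. Summed over the 13 genes of the Paneth list, with Reg3g and Guca2b the most abundant, the level was 2663 to 3984 CPM in dIEC and 1739 to 5136 CPM in WT. The part of Paneth or enterocyte RNA in the 2 blocks was not tested.

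The genes whose log2 CPM was most like that of a member were looked for outside the members, among tested genes that averaged 1 CPM or more and had a name other than a Gm number or a Rik name. For Muc2 these were Fer1l6 (r = 0.993), P2ry4 (0.983), Sh3pxd2a (0.982), Kcnf1 (0.980) and Ttyh1 (0.980). For Atoh1 they were Ramp1 (0.975), Gcnt3 (0.971), Rgs2 (0.968), Ttc39a (0.966) and Capn9 (0.965). Gcnt3 is a mucin-type O-glycan branching enzyme, and Rgs2 a regulator of G protein signalling. For Spdef they were Rab3d (0.968), Slc2a1 (0.959), Qsox1 (0.948), Txndc5 (0.948) and Klk1 (0.947). Rab3d is a small GTPase of secretory granules, and Qsox1 and Txndc5 act in disulfide formation. Among all 12476 other tested genes, members and unnamed gene models included, Muc2 had rank 1 for Fcgbp, and Fcgbp had rank 4 for Muc2, by r. Spink4 had rank 5100 and Agr2 rank 3455 for Muc2.

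The wider mucus pathway was read from lists of genes with known roles. None of their genes was called between dIEC and WT by edgeR. Of 92 tested genes over the 6 lists, 3 were under an unadjusted p of 0.05 (3.26%, against 2.85% of all genes), namely Gcnt1, Muc4 and Mep1a. Of 19 tested enzymes and transporters of mucin glycosylation, 9 had values above 0 and 10 below, with a median log2 fold change of -0.05. The sialyltransferase gene St3gal4 averaged 1830 ± 421 CPM in dIEC and 2010 ± 344 CPM in WT, and B4galnt2, which completes the Sda glycan, 491 ± 37.1 CPM in dIEC and 474 ± 32.5 CPM in WT (SD, n = 5 each). Gcnt1, a core-2 branching enzyme named after its values were seen, averaged 4.75 ± 2.82 CPM in dIEC and 1.77 ± 0.745 CPM in WT (log2 fold change 1.46, SE 0.41, edgeR adjusted p = 0.9999).

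Of 19 genes of goblet factors and Notch signalling, 13 had values above 0 and 6 below (median 0.09). Klf4, a factor that mouse goblet cells of the colon need to mature, averaged 369 ± 168 CPM in dIEC and 285 ± 152 CPM in WT. The epithelial Ets factor gene Elf3 averaged 398 ± 22.1 CPM in dIEC and 377 ± 76.3 CPM in WT. Of 25 genes of the secretory endoplasmic reticulum and granules, 10 had values above 0 and 15 below (median -0.06). Hspa5, which encodes the chaperone BiP, averaged 607 ± 110 CPM in dIEC and 807 ± 279 CPM in WT (log2 fold change -0.40, SE 0.21, edgeR adjusted p = 0.9999). Xbp1, the unfolded protein response factor, was counted in the list of goblet factors and Notch signalling and not in this one. It averaged 185 ± 14.2 CPM in dIEC and 216 ± 38.6 CPM in WT (SD, n = 5 each).

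Other goblet products were split 8 and 8 among 16 tested genes (median -0.01), with Guca2a, the guanylin precursor, at 449 ± 22.6 CPM in dIEC and 447 ± 80.8 CPM in WT. Among 4 tested transmembrane mucin genes, Muc13 averaged 2530 ± 691 CPM in dIEC and 2330 ± 538 CPM in WT, and Muc3 1340 ± 350 CPM in dIEC and 1160 ± 387 CPM in WT. Muc4 averaged 20 ± 6.0 CPM in dIEC and 31.9 ± 5.90 CPM in WT, a log2 fold change of -0.68 (SE 0.22) that did not pass (edgeR adjusted p = 0.9999). Of 9 genes for mucus processing and ion transport, 2 had values above 0 and 7 below (median -0.08). Mep1b, the meprin beta protease that in mice detaches small intestinal mucus by cutting Muc2, averaged 1700 ± 346 CPM in dIEC and 1820 ± 471 CPM in WT, and Mep1a averaged 913 ± 246 CPM in dIEC and 622 ± 141 CPM in WT (log2 fold change 0.55, SE 0.23, edgeR adjusted p = 0.9999). Among other lineages, 14 of 15 enteroendocrine genes had values above 0 (median 0.35) and 8 of 8 tuft cell genes below 0 (median -0.50), and none was called.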

How the data were processed

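The authors deposited raw counts per gene, and the submitters' processing notes name Novoalign and mm10. Per the labels' protocols a stranded kit with ribosomal depletion was used. The counter, strand setting and gene models were not given in the sources used here. Groups and sexes follow the sample labels. The members, the gene lists and the rule for named genes were chosen with earlier results of these data known. That rule takes the members, the 3 most abundant genes of each pathway list and the 2 of each cell type list, and the 5 named genes outside the members, with a mean of at least 1 CPM, most like Muc2, Atoh1 and Spdef. The text gives part of them.

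In R 4.3.3, filterByExpr kept 12477 genes (89.6%), TMM factors scaled the 10 libraries, and edgeR 4.0.16 fitted a robust quasi-likelihood model on sex plus genotype, with a product term for the interaction. A Benjamini-Hochberg adjusted p under 0.05 over all tested genes was a call. SE was computed as the absolute log2 fold change divided by the root of F. CPM was computed on totals scaled by TMM, with a prior count of 2 for log2 CPM. Correlations had two-sided permutation tests with 100000 resamples, or exact ones for 9 or 6 libraries, adjusted over 16, 55 or 48 relations. Alternatives used DESeq2 1.42.0 and limma 3.58.1. Totals of 9174101 to 13484363 counts set the counting error, to which the spread between mice adds. No library repeated another of its own genotype: the 20 pairs within groups had a chi-square of 16 to 152 per degree of freedom. Pairs across genotypes were not examined. Tested on simulated counts for 12477 genes, the genotype test recovered 48% of 2-fold changes and 85.7% of 4-fold changes, with 5 of 138 calls false. The simulation changed 102 genes 2-fold and 98 genes 4-fold, drew genes independently and had no sex effect. In the real data 2 genes were called and the members varied together. The simulated shares therefore do not give the power for the members. Promoter windows and motif counts come from RefSeq on GRCm38.p6, and positions and exon lengths from GENCODE M21 on GRCm38, the assembly also called mm10.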

Additional observations from a re-analysis of the deposited data

Results flagged for a closer look

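Each member's and the Clca3 row's CPM was examined for a single mouse far from the others of its genotype by Dixon's test, in 22 groups of 5. None was flagged, where chance would flag about 1.1, and no interaction of genotype with sex passed the threshold.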

How the results depend on the processing

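No paired analysis was done, because the sample labels name no pairs and do not state whether mice were matched. No member was called for genotype, and none for the interaction, under any alternative run, and for sex 1 member (Bcas1) was called with the proliferation score in the model and none otherwise. Genotype values near 0 changed sign readily. Without sex in the model they were -0.19 for Muc2, -0.25 for Tff3, -0.21 for Fcgbp, -0.17 for Zg16, -0.048 for Atoh1 and -0.061 for the Clca3 row. In males only they were -0.47, -0.60, -0.52, -0.46, -0.25 and -0.19 for the same rows. In females only they were 0.16 for Agr2, 0.11 for Spink4, 0.051 for Spdef and 0.34 for Bcas1, and the median was 0.75. Leaving out 1 library at a time, genotype values ran from -0.25 to 0.77 for Muc2, -0.22 to 0.32 for Tff3, -0.27 to 0.71 for Fcgbp, -0.17 to 0.48 for Zg16, -0.42 to 0.10 for Agr2, -0.32 to 0.013 for Spdef, -0.11 to 0.24 for Atoh1, -0.25 to 0.11 for Bcas1 and -0.091 to 0.28 for the Clca3 row. The sex value of Spink4 was 0.089 in dIEC only and ran from -0.73 to 0.083 without 1 library. Without 1 library the interaction ran from -0.26 to 1.64 for Agr2, -0.13 to 1.06 for Spdef and -0.38 to 1.96 for Spink4, and its median over members from 0.68 to 1.71, the highest without WT 8. The median of the goblet factor and Notch list ran from -0.11 (without dIEC 9) to 0.14. Of 16 factor and product relations, 5 were called in males only and 6 to 13 (main 10) without 1 library, 6 without WT 10. In males only r of the Clca1 row was -0.117 with Atoh1 and -0.528 with Spdef, and Spdef with that row ran from -0.227 to 0.603 without 1 library. With the Clca3 row in place of the Clca1 row, chosen after seeing the data, 12 relations were called. The causes were not tested. Normalization, the filter on low counts, DESeq2 and limma voom changed no call or sign of a member for genotype, sex or interaction.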
